A study of Mus musculus with 9 samples.

Results

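The response to stress of the endoplasmic reticulum (ER) and to amino acid starvation was followed through 40 genes of the 28932 genes with an identifier in the deposited tables. Members were taken by gene symbol, and the transcript entry with the highest mean read count over the 9 libraries stood for each gene. The libraries were made from total RNA of Hepa 1 WT cells, a mouse hepatoma line whose cell line label reads HC1C. They fall into 3 groups of 3. Control cells received vehicle per the treatment protocol and are labelled untreated. FICZ cells received 10 nM of FICZ, which forms from tryptophan under light and is a high-affinity ligand of the aryl hydrocarbon receptor (AhR), a transcription factor. Tryptamine cells received 50 uM of tryptamine, a monoamine made from tryptophan, which the series title names as a proligand of the AhR that needs monoamine oxidases. All groups were treated for 6 h, and no group carries a genetic change in the labels. The labels do not say that libraries of a group came from separate cultures, so the p-values measure the spread between these libraries, which may be technical.

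When unfolded proteins build up in the ER, the sensors IRE1 (gene Ern1), PERK (Eif2ak3) and ATF6 are activated, and together with their targets they make up the unfolded protein response. PERK and the amino acid sensor GCN2 (Eif2ak4) both phosphorylate the translation factor eIF2, which lowers general translation but favours translation of the transcription factor ATF4. ATF4 then raises genes for amino acid synthesis and uptake, the factor CHOP (Ddit3) and negative feedback regulators, while ATF6 and spliced XBP1 raise ER chaperones and the machinery that removes misfolded proteins. Several of these steps act on protein or on splicing, and gene-level read counts do not show them. Hepatocytes secrete much protein and rely on these chaperones.

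Some of the members have promoters with elements through which the response is known to act, and the windows below show members that carry one. RefSeq promoters on GRCm38.p6, from 250 bases before to 50 after the transcription start, were matched by symbol for 36 of the 40 members. Atf6, Hyou1, Slc1a5 and Slc7a5 had no entry. The ER stress element, read here as CCAAT followed after 9 bases by CCACG, is bound by ATF6 together with the factor NF-Y. It was found on either strand in 7 of the 36 members, or 19.4%, against 0.119% of the 32851 promoters. Members were counted by gene here, and by promoter the match was in 7 of their 41 promoters. All 7 members belong to the chaperones and folding enzymes. The second form of the element, ATTGG followed after 1 base by CCACG, was found in Dnajb11 and Herpud1, and in 0.0365% of promoters. In the windows, the capitals mark the match and the sequence runs along the strand of the gene. Where the capitals read as the reverse complement, the match is on the opposite strand.
Hspa5, chr2:34772005-34772063, plus strand: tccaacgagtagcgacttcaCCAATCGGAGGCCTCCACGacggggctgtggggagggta
Hsp90b1, chr10:86705618-86705676, minus strand: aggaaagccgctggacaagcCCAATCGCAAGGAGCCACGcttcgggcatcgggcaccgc
Hsp90b1, chr10:86705513-86705571, minus strand: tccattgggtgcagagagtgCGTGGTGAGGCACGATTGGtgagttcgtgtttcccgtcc
Calr, chr8:84847055-84847113, minus strand: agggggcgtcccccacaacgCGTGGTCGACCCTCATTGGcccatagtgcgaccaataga
Canx, chr11:50325780-50325838, minus strand: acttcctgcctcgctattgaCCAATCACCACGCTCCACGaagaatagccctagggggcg
Pdia6, chr12:17266471-17266529, plus strand: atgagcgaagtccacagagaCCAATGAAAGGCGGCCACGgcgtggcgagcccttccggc
Dnajc3, chr14:118937807-118937865, plus strand: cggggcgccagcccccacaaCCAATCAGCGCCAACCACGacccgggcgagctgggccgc
Creld2, chr15:88819500-88819558, plus strand: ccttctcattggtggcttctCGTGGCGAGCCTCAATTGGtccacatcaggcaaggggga
Herpud1, chr8:94386357-94386407, plus strand: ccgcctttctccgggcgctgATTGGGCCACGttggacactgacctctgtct

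The core of the amino acid response element, to which ATF4 binds with C/EBP partners, was read as TGATG followed after 1 base by AA. It was found in 6 of the 36 members, namely Asns, Chac1, Fgf21, Herpud1, Trib3 and Vldlr. By promoter it was in 6 of the 41 promoters of the members and in 3.97% of all promoters. Herpud1, which takes part in the removal of misfolded ER proteins, was the only member with a match to both kinds of element, and the matches did not overlap. The windows of 5 of these members are given with the match in capitals. The AhR response element TTGCGTG, the site at which the AhR binds with its partner ARNT, had no match in the windows of the 36 members and was found in 1.16% of all promoters. A match describes letters in this window and shows no binding, and a missing match says only that the letters are not there.
Asns, chr6:7693210-7693252, minus strand: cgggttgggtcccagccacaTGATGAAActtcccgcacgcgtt
Chac1, chr2:119351029-119351076, plus strand: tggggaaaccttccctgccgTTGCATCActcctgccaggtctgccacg
Herpud1, chr8:94386297-94386344, plus strand: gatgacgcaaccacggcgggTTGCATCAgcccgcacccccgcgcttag
Vldlr, chr19:27216800-27216847, plus strand: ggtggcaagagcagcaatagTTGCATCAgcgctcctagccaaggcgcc
Fgf21, chr7:45615602-45615649, minus strand: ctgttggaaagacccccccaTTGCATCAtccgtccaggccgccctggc

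Total counts over genes were 11594786 to 16715843 per library, and 12372 genes passed the filter on low counts. Levels are given in CPM, counts scaled to the library total of the genes tested. Cyp1a1, the classical AhR target, checked the treatments. It was at 63.9, 55.4 and 58.3 CPM in controls, at 1022, 1035 and 951 CPM with FICZ and at 674, 682 and 754 CPM with tryptamine. Control replicate 3 stood apart: its log CPM correlated with the other libraries at 0.954 to 0.960 across genes, and no pair of the others was below 0.987. Long transcripts were low and short ones high in it, so counts, and the values it moved most, are also given without it. Of 10 hepatocyte markers, 5 passed the filter on low counts: Trf at 410 to 482 CPM, Alb at 206 to 275, Afp at 114 to 228, Foxa2 at 28.6 to 41.4 and Apoa2 at 1.37 to 3.58. Ttr, Apoa1, Apob and Hnf4a had 0 counts in all libraries and Serpina1a had 7 counts in all. Of the fibroblast markers 6 of 8 passed the filter, from Acta2 at 0.680 to 2.34 CPM up to Col1a1 at 878 to 1316 CPM. Col1a2 had 11 counts in all and Lum had 0. Of the bile duct markers, Krt7 was at 820.5 to 1322 CPM and Sox9 at 68.9 to 86.9 CPM. Krt19 was at 0.541 to 2.32 CPM and Epcam had 0 counts. Over the 8 libraries other than control replicate 3, the hepatocyte list summed to 796 to 903 CPM, the fibroblast list to 1622 to 1763 CPM, the bile duct list to 897 to 1016 CPM and the blood and endothelial list to 13.5 to 18.6 CPM. In control replicate 3 the first 3 of these sums were 1027, 1384 and 1392 CPM, and their part in the results was not tested.

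No gene of the stress response passed the test with either treatment, and most members were bounded to less than 1.5-fold of control. Of the 40 members, 39 passed the filter, and 0 of the 39 had an adjusted p under 0.05 in any of the 3 comparisons with edgeR's quasi-likelihood test, where 0.113% of all genes passed for FICZ, 0.00808% for tryptamine and 0% for FICZ against tryptamine. At an unadjusted p under 0.05, 3 members were found with FICZ, 2 with tryptamine and 0 in the direct comparison, or 7.69%, 5.13% and 0% of the 39, against 8.12%, 5.15% and 1.73% of all genes. With control replicate 3 left out edgeR again called 0 members, where 0.805%, 0.199% and 0.136% of all genes passed. At an unadjusted p under 0.05 it then found 3, 2 and 2 members, against 9.97%, 6.58% and 5.97% of all genes. DESeq2's Wald test also called 0 members in each comparison. The remaining gene, Fgf21, a secreted hormone and ATF4 target in stressed liver, had 0 counts in all 9 libraries. A count of 0 allows up to 0.179 to 0.259 CPM, counting 3 reads as the limit in each library, and this covers counting error only.

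Differences of the members were small in both directions. With FICZ, 19 of the 39 members were above control and 20 below, with a median log2 difference of -0.0019 and a range from -0.34 for Sdf2l1 to 0.31 for Eif2ak3. The median over all genes tested was -0.0057. With tryptamine, 20 were above and 19 below, with a median of 0.031, against 0.0040 over all genes, and a range from -0.33 for Chac1 to 0.50 for Dnajb9. These comparisons share the control libraries. In the fit that leaves out control replicate 3 the medians of the members were 0.020 and 0.046, with 23 and 27 members above control. The median and the share above control over all genes in that fit are not given here. These counts therefore cannot be read as a shift of the members apart from other genes. The directions of single members in the fit to all 9 libraries thus depend in part on that library, as the plot of log2 differences shows.

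The intervals give the size of difference that the spread between these libraries, which may be technical, still allowed. They hold for each gene singly and not for all members at once. The 95% interval of the difference lay within 1.5-fold in either direction for 30 of the 39 members with FICZ and for 31 with tryptamine, against 51.7% and 53.9% of all genes tested. It lay within 2-fold for all 39 members in both comparisons. With control replicate 3 left out it lay within 1.5-fold for 38 members with FICZ, the exception being Ddit3, and for 37 with tryptamine, the exceptions being Chac1 and Dnajb9. For all genes the shares were then 71.9% and 72.8%.

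**Figure D1:**
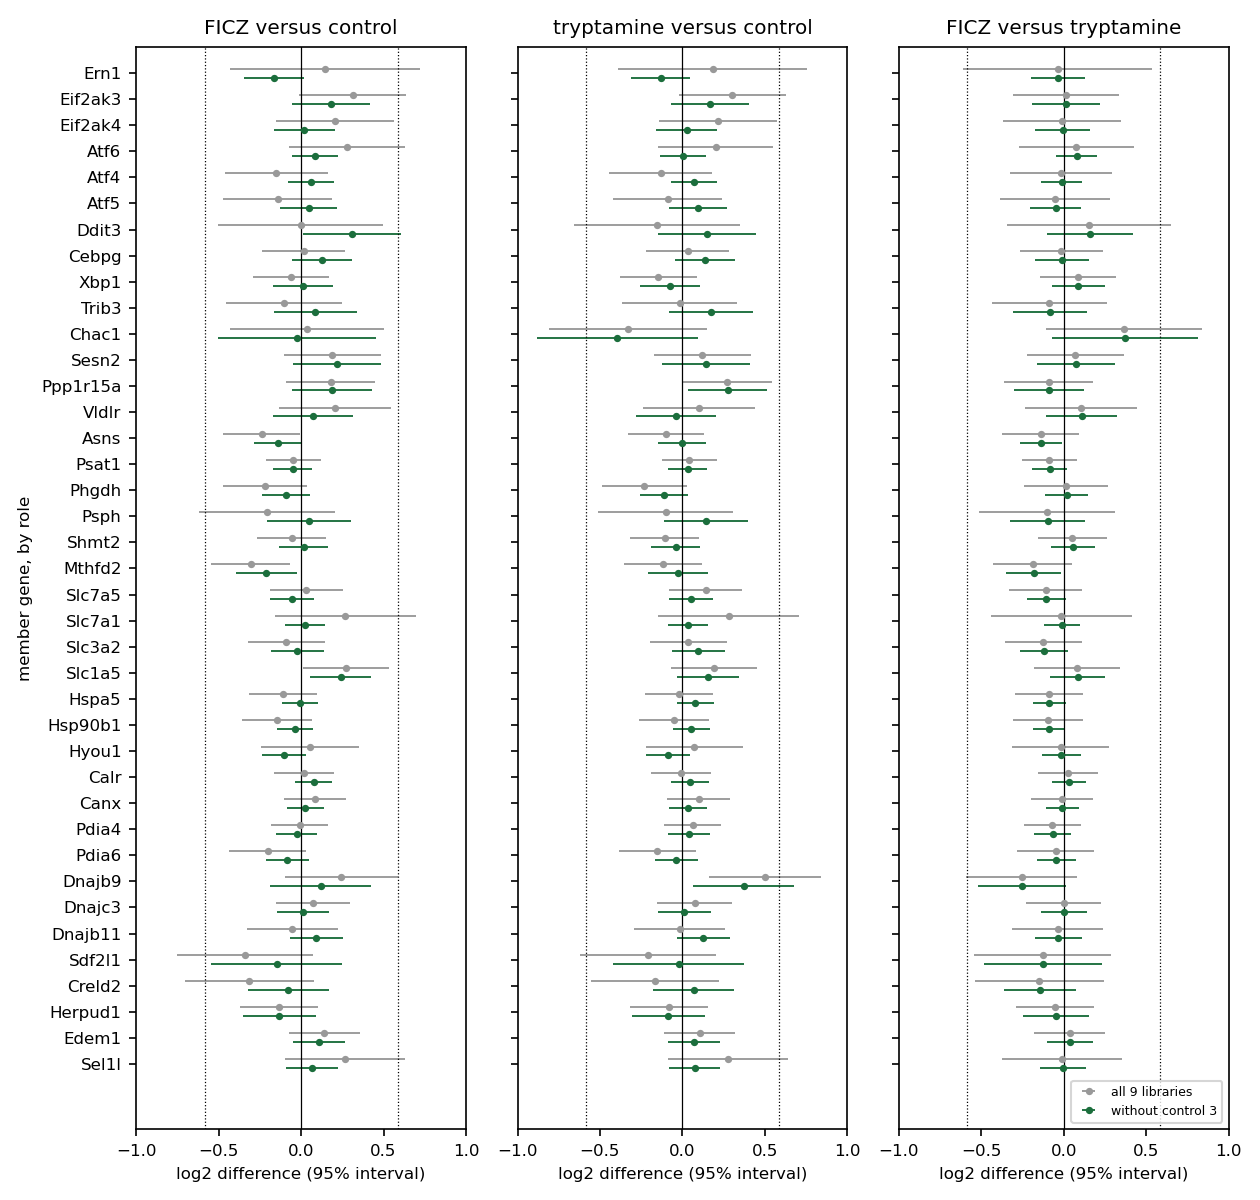
Log2 difference (x axis) of the 39 tested members (y axis, by role) in 3 comparisons, with points for the estimate and lines for the 95% interval, grey for all 9 libraries and green without control replicate 3. Dotted lines mark 1.5-fold in either direction. The green intervals are narrower for 38 of the 39 members against control, the exception being Chac1, and most lie across 0 and between the dotted lines.

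Per unit of transcript length, the most abundant members were ER chaperones, while others of that role were among the lowest. Hsp90b1 (GRP94) had a mean of 451 CPM per kilobase over the 9 libraries, Hspa5 (BiP) 414, the lectin chaperone Calr 389 and its membrane-bound relative Canx 255. Psat1, which makes phosphoserine for serine synthesis, followed at 191 and Phgdh, which opens that pathway, at 176. Of the transcription factors, Atf5 (121) and Atf4 (116) stood above Ddit3 (33.0), Xbp1 (32.6) and Cebpg (14.9). The lowest members were Chac1 (3.47), Vldlr (3.93) and Sdf2l1 (6.89). Sdf2l1 belongs to the chaperones and folding enzymes, as do Dnajb9 (7.50) and Creld2 (23.8). All 39 members together took 8834 to 9388 CPM, or 0.883% to 0.939% of the effective size of each library.

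**Figure D2:**
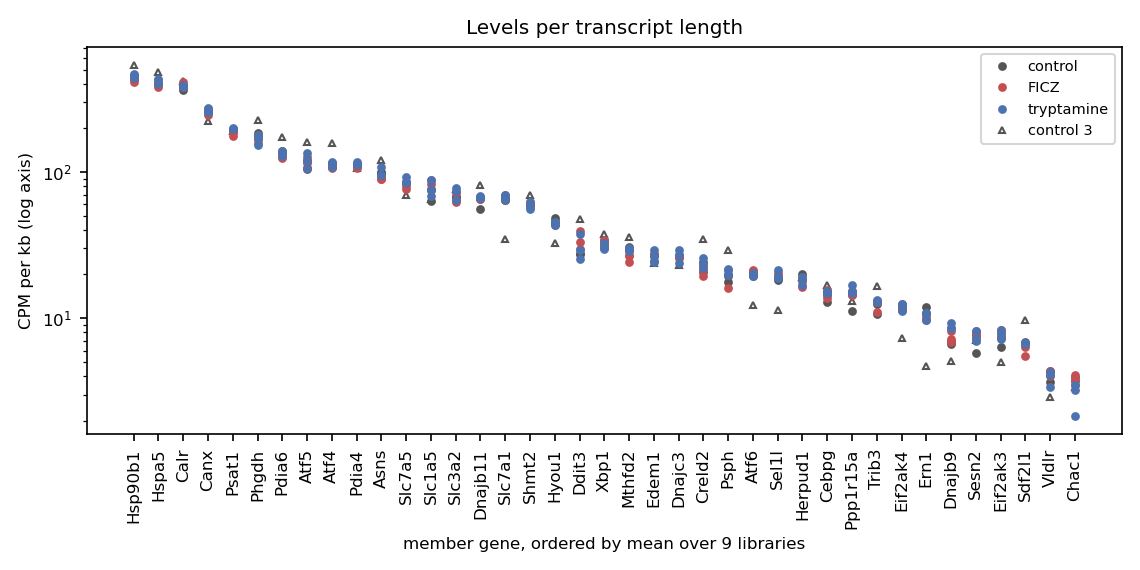
CPM per kilobase of transcript (y axis, log scale) of each member in each library, ordered by the mean over 9 libraries, with control in black, FICZ in red, tryptamine in blue and control replicate 3 as open triangles. The libraries of the 3 groups lie close together from Hsp90b1 at the top to Chac1, and the triangles are the points most often apart.

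The libraries other than control replicate 3 held the members within narrow limits. Over these 8 libraries, the highest level of a member was less than 1.5 times its lowest for 37 of the 39. The exceptions were Ddit3 at 1.55 and Chac1 at 1.92. The closest were Slc7a1 at 1.08 and Atf6 at 1.10. The treatments are included in these 8 libraries, so the spread holds any effect of FICZ or tryptamine as well as the error between libraries.

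**Figure D3:**
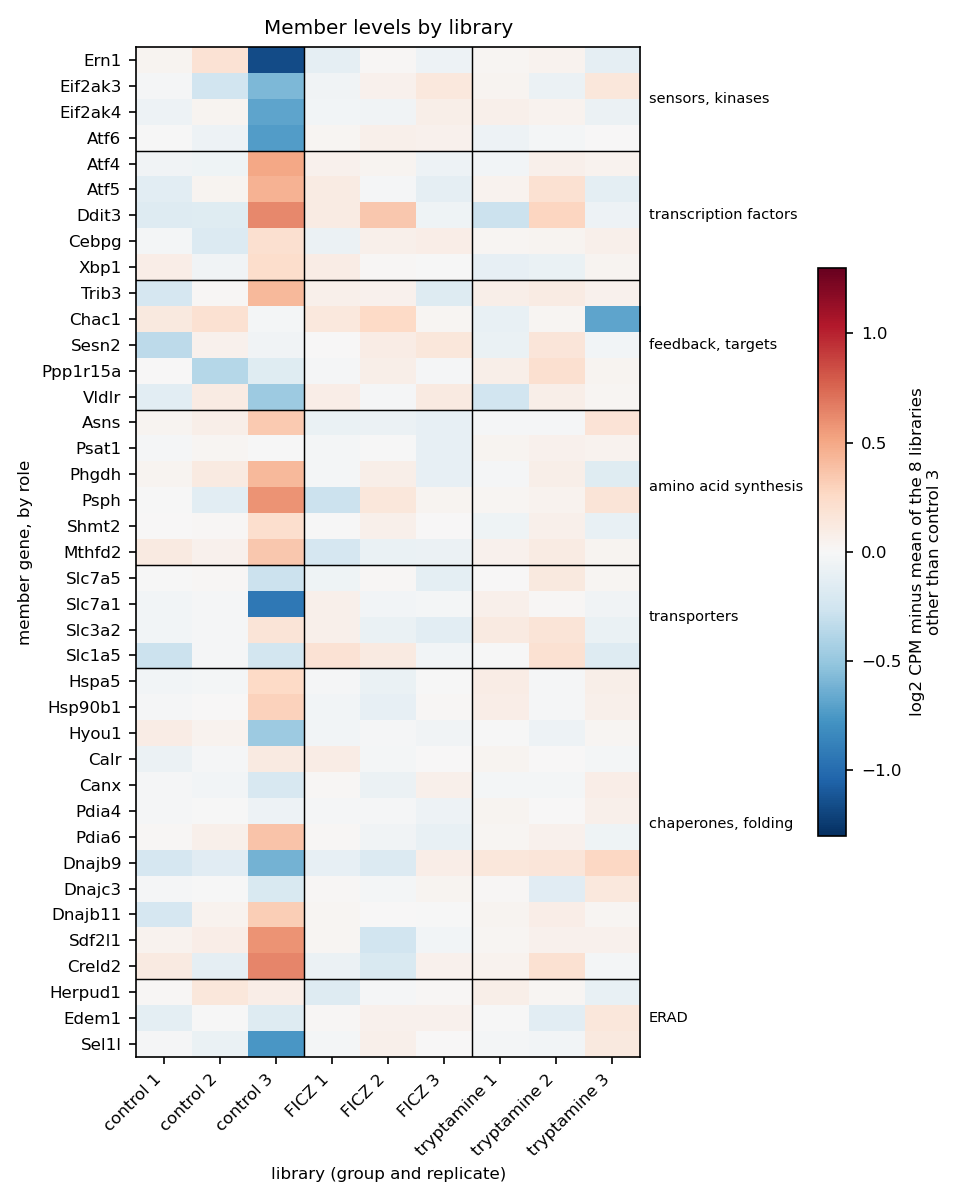
Log2 CPM of each member (y axis, by role) in each library (x axis), minus its mean over the 8 libraries other than control replicate 3; red is higher and blue is lower. The column of control replicate 3 runs from -1.17 for Ern1 to 0.63 for Creld2. Among the other 8 columns the deepest colour is Chac1 in tryptamine replicate 3, at -0.68.

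The sensors and eIF2 kinases were all lower in control replicate 3, and none passed the test. Eif2ak3, which encodes PERK, was at 33.6, 28.5 and 22.7 CPM in controls, at 32.8, 35.4 and 37.4 with FICZ and at 34.8, 32.3 and 37.6 with tryptamine. Control replicates 2 and 3 were low, and replicate 1 fell within the range of both treated groups. The log2 difference from control was 0.31 ± 0.15 (SE) with FICZ, at an adjusted p of 0.601 in edgeR, and 0.30 ± 0.15 with tryptamine, at 0.741. Leaving out control replicate 3 gave 0.18 ± 0.11 and 0.17 ± 0.11. Atf6, the sensor that is cut in the Golgi to give a transcription factor, was at 151, 145 and 91.4 CPM in controls, at 154, 158 and 157 with FICZ and at 145, 149 and 151 with tryptamine. The FICZ libraries were above all controls, with control replicate 1 just below them.

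With control replicate 3 left out, Eif2ak3, Eif2ak4 and Atf6 had smaller differences from control, and those of Ern1 turned negative. Atf6 had a log2 difference of 0.28 ± 0.16 with FICZ over all 9 libraries and of 0.08 ± 0.07 without that library. Eif2ak4, which encodes GCN2, was at 58.9, 63.3 and 38.5 CPM in controls, at 60.5, 60.1 and 65.2 with FICZ and at 64.8, 63.7 and 58.5 with tryptamine. Its groups overlapped once the low control was set aside. Ern1, which encodes IRE1, was at 75.4, 83.5 and 32.8 CPM in controls, and its log2 difference with FICZ was 0.14 ± 0.26 over all libraries and -0.17 ± 0.09 without control replicate 3. All 4 sensors together summed to 185 CPM in that library and to 314 to 330 CPM in the other 8.

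No transcription factor of the response passed the test. Atf4, the main effector of eIF2 phosphorylation, was at 185, 185 and 271 CPM in controls, at 199, 197 and 182 with FICZ and at 187, 201 and 198 with tryptamine. Control replicate 3 was the highest library and the other 8 spanned 182 to 201 CPM. The log2 difference from control was -0.15 ± 0.14 with FICZ (adjusted p = 0.666, edgeR) and -0.13 ± 0.14 with tryptamine (0.752). Without control replicate 3 the signs were the other way, at 0.06 ± 0.07 with FICZ and 0.07 ± 0.07 with tryptamine.

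Ddit3, which encodes the pro-apoptotic factor CHOP, was at 24.0, 24.1 and 41.5 CPM in controls, at 29, 34.2 and 25.8 with FICZ and at 22.1, 32.6 and 25.6 with tryptamine. Control replicate 3 was the highest of all libraries, and control replicates 1 and 2 lay below every FICZ library. The log2 difference with FICZ was -0.0019 ± 0.23 over all 9 libraries (adjusted p = 0.998, edgeR). Without control replicate 3 it was 0.31 ± 0.14, with an unadjusted p of 0.0426 and an adjusted p of 0.477, and the adjusted p ranged from 0.199 to 1 over all settings. Ddit3 shares 3.97% of its exon bases with Mars on the opposite strand in GENCODE M21, and the labels do not give whether counting used strand.

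The other factors also did not pass. Xbp1, whose spliced form drives chaperone and degradation genes, was at 72.5, 66.0 and 80.0 CPM in controls, at 73.1, 68.8 and 67.7 with FICZ and at 63.5, 64.2 and 69.8 with tryptamine. All groups overlapped. Atf5, another factor translated when eIF2 is phosphorylated, was at 191, 216 and 289 CPM in controls, at 228, 209 and 194 with FICZ and at 218, 243 and 194 with tryptamine. These groups also overlapped, and 4.11% of its exon bases are shared with Nup62 and Il4i1 on the opposite strand. Cebpg, a partner of ATF4 on DNA, had a log2 difference of 0.017 with FICZ and 0.031 with tryptamine, and of 0.13 and 0.14 without control replicate 3.

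Among the feedback regulators and other targets of ATF4 and CHOP, Ppp1r15a came nearest to a difference with tryptamine. Ppp1r15a encodes GADD34, which takes phosphate off eIF2 and so ends the translational block. It was at 34.1, 26.3 and 30.5 CPM in controls, at 33.5, 35.7 and 33.7 with FICZ and at 35.7, 39.3 and 34.8 with tryptamine. Every tryptamine library was above every control. The log2 difference was 0.27 ± 0.12, with an unadjusted p of 0.0481 and an adjusted p of 0.741 in edgeR, and it was 0.27 ± 0.12 without control replicate 3 as well. Control replicate 1 was just below the lowest tryptamine library.

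Chac1, an enzyme that breaks down glutathione and a sensitive ATF4 target, had the lowest level per kilobase of the members tested. It was at 5.88, 6.19 and 5.29 CPM in controls, at 5.91, 6.43 and 5.47 with FICZ and at 5.03, 5.48 and 3.36 with tryptamine. Tryptamine replicate 3 was low, and the other tryptamine libraries met the lower end of the control range. Its log2 difference with tryptamine was -0.33 ± 0.22 (adjusted p = 0.741, edgeR) and -0.39 ± 0.24 without control replicate 3. Sesn2, an inhibitor of mTORC1 signalling, was at 20.2, 26.6 and 24.7 CPM in controls, at 25.8, 27.4 and 28.3 with FICZ and at 24.1, 28.5 and 25 with tryptamine. Its groups overlapped. Trib3, the pseudokinase that restrains ATF4 and AKT, had log2 differences of -0.10 with FICZ and -0.017 with tryptamine, and Vldlr, a lipoprotein receptor and ATF4 target, 0.21 and 0.10. Without control replicate 3 both differences of Trib3 were positive, at 0.09 and 0.17, while those of Vldlr were 0.07 and -0.04. Of the 4 tested members with an amino acid response core upstream of their start (Asns, Chac1, Herpud1 and Vldlr in the windows above), none passed the test.

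The enzymes of amino acid and one-carbon synthesis held the members closest to a lower level with FICZ. All 6 had a negative log2 difference with FICZ, with a median of -0.21, against -0.0057 over all genes. Control replicate 3 was above the other controls for all of the 6 but Psat1, and without it 4 of the 6 were negative, with a median of -0.07. Mthfd2, the mitochondrial enzyme that oxidises methylene-tetrahydrofolate, was at 63.5, 60.7 and 74.7 CPM in controls, at 50.4, 55.1 and 55.6 with FICZ and at 60.9, 62.7 and 59.8 with tryptamine. Every FICZ library was below every control and every tryptamine library. The log2 difference from control was -0.30 ± 0.11, an unadjusted p of 0.0174 and an adjusted p of 0.601 in edgeR. Without control replicate 3 it was -0.21 ± 0.09, with an adjusted p of 0.414, and over all settings the adjusted p ranged from 0.288 to 0.835.

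Asns, asparagine synthetase and the textbook target of the amino acid response, showed the same order. It was at 195, 201 and 241 CPM in controls, at 180.3, 181 and 178 with FICZ and at 189, 189 and 217 with tryptamine. The FICZ libraries lay close together and below all others. The log2 difference with FICZ was -0.24 ± 0.10, with an unadjusted p of 0.0437 and an adjusted p of 0.601 in edgeR, and -0.14 ± 0.07 without control replicate 3. In the authors' deposited table the same transcript entry had a log2 fold change of -0.3 and an adjusted p of 0.0474 for FICZ. It was the only one of the 39 members under 0.05 in the authors' deposited table, where 7.55% of the genes tested here were under 0.05 for FICZ, 2.23% for tryptamine and 0.178% for FICZ against tryptamine. The authors' deposited lists of genes with higher transcripts, 81 genes for FICZ and 22 for tryptamine, held 0 members.

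The remaining synthesis enzymes overlapped between FICZ and control. Phgdh was at 326, 344 and 424 CPM in controls, at 313, 335 and 295 with FICZ and at 313, 334 and 285 with tryptamine. Control replicate 3 was the highest library, and the treated groups covered the same range. The log2 difference with tryptamine was -0.23 ± 0.12 (unadjusted p = 0.0726, adjusted p = 0.741, edgeR) and -0.11 ± 0.07 without that library. Psat1 ranged from 463 to 519 CPM over all 8 other libraries and was at 497 CPM in control replicate 3. Psph, which releases serine at the end of the pathway, and Shmt2, which passes a carbon unit from serine to folate in mitochondria, had log2 differences from -0.21 to -0.06 in the 2 treatments. Without control replicate 3 Psph was positive in both, at 0.05 with FICZ and 0.14 with tryptamine, and Shmt2 was at 0.02 and -0.04. In GENCODE M21 10.4% of the exon bases of Psph are shared with Cct6a on the opposite strand.

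Of the amino acid transporters, Slc1a5 was the member nearest to a higher level with FICZ. Slc1a5 (ASCT2) carries glutamine and other neutral amino acids. It was at 177, 212 and 182 CPM in controls, at 246, 233 and 211 with FICZ and at 214, 247 and 192 with tryptamine. FICZ replicates 1 and 2 were above all controls, while FICZ replicate 3 fell just below control replicate 2. The log2 difference with FICZ was 0.27 ± 0.12 over all libraries and 0.24 ± 0.09 without control replicate 3, with adjusted p-values of 0.601 and 0.322 in edgeR. It was below the threshold in 1 setting, chosen after seeing the data, in which control replicate 3 was left out and the replicate number entered as a block. The log2 difference was then 0.32 ± 0.07 and the adjusted p 0.00621, while over all settings the adjusted p ranged from that value to 0.835.

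The other transporters were close to control once control replicate 3 was set aside. Slc7a1, the carrier of arginine and lysine, was at 465, 471 and 249 CPM in controls, at 497, 463 and 466 with FICZ and at 498, 481 and 461 with tryptamine. Only control replicate 3 was low. The log2 difference with tryptamine was 0.28 ± 0.19 over all libraries and 0.034 ± 0.060 without it. Slc7a5 (LAT1), which exchanges large neutral amino acids and pairs with the heavy chain Slc3a2, was at 293, 298 and 243 CPM in controls, at 283, 299 and 270.3 with FICZ and at 297, 323 and 301 with tryptamine. Its groups overlapped apart from that library. Slc3a2 had log2 differences of -0.09 with FICZ and 0.03 with tryptamine, and of -0.02 and 0.10 without control replicate 3.

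The ER chaperones and folding enzymes had 1 member that stood out with tryptamine. Dnajb9 encodes ERdj4, a co-chaperone of BiP and a target of spliced XBP1. It was at 12.4, 13.1 and 9.47 CPM in controls, at 13.4, 12.8 and 15.3 with FICZ and at 16, 16.1 and 17.4 with tryptamine. The tryptamine libraries were above all controls and above all FICZ libraries. The log2 difference from control was 0.50 ± 0.15, with the smallest unadjusted p of any member, 0.00804, and an adjusted p of 0.741 in edgeR. Without control replicate 3 it was 0.37 ± 0.15, with an unadjusted p of 0.0188, and over all settings the adjusted p ranged from 0.395 to 0.907. FICZ gave a log2 difference of 0.24 ± 0.15 from control, or 0.12 ± 0.15 without control replicate 3, and the direct comparison of FICZ with tryptamine -0.25 ± 0.15 (adjusted p = 1.00).

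None of the chaperones that carry the ER stress element in the windows above passed the test with either treatment. Hspa5, which encodes BiP, the chaperone that holds the sensors inactive, was at 1035, 1044 and 1263 CPM in controls, at 1047, 995 and 1058 with FICZ and at 1134, 1050.0 and 1116 with tryptamine. The tryptamine libraries were just above control replicates 1 and 2 and the FICZ libraries lay on both sides of them. The log2 difference was -0.11 ± 0.09 with FICZ (adjusted p = 0.650, edgeR) and -0.018 ± 0.093 with tryptamine (0.947), and without that library -0.0083 ± 0.053 and 0.08 ± 0.05. The 95% interval for Hspa5 without that library ran from 0.921-fold to 1.07-fold with FICZ and from 0.978-fold to 1.14-fold with tryptamine. Hsp90b1, Calr, Canx, Dnajc3, Creld2 and Pdia6, the other genes with the element, had adjusted p-values from 0.605 to 0.971 in both comparisons with control.

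Pdia6 and Sdf2l1 were the folding genes with the next smallest p-values. Pdia6, a protein disulfide isomerase, was at 286, 297 and 367 CPM in controls, at 286, 275 and 265 with FICZ and at 287, 295 and 273 with tryptamine. The highest FICZ library was just below the lowest control. The log2 difference with FICZ was -0.20 ± 0.11 (adjusted p = 0.605, edgeR) and -0.08 ± 0.06 without control replicate 3. Sdf2l1, an ER protein that works with BiP and ERdj proteins, was at 7.44, 7.64 and 10.8 CPM in controls, at 7.33, 6.07 and 7.04 with FICZ and at 7.35, 7.49 and 7.49 with tryptamine. Its difference with FICZ was -0.34 ± 0.19 over all libraries and -0.15 ± 0.19 without control replicate 3, with the largest SE of the chaperones. Hyou1, Pdia4, Dnajb11 and the rest of this role had adjusted p-values of 0.605 or more with FICZ and of 0.741 or more with tryptamine, Hyou1 with 0.687-fold of the other controls in control replicate 3.

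The genes of ER-associated degradation, which returns misfolded proteins to the cytosol, did not pass the test either. Sel1l, the partner of the HRD1 ubiquitin ligase, was at 121, 115 and 72.1 CPM in controls, at 119.8, 128 and 122 with FICZ and at 120.2, 119 and 134 with tryptamine. Control replicate 3 was low and the other 8 libraries overlapped. Edem1, a mannosidase-like lectin, was at 143, 155 and 139 CPM in controls, at 158, 162 and 162 with FICZ and at 155, 142 and 172 with tryptamine. The FICZ libraries were above the controls, by a log2 difference of 0.14 ± 0.10 (adjusted p = 0.612, edgeR), or 0.11 ± 0.08 without control replicate 3. Herpud1, with both elements in its promoter, was at 35.9, 39.2 and 37.6 CPM in controls, at 31.7, 35.1 and 36.0 with FICZ and at 37.3, 36.1 and 33.1 with tryptamine, and the groups overlapped.

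Counted over libraries, 6 of the 39 members had FICZ and control groups that did not overlap: Atf6 and Edem1 were higher, and Asns, Mthfd2, Pdia6 and Sdf2l1 lower. Of all genes tested, 8.21% did not overlap in the higher and 7.4% in the lower direction. With tryptamine 4 members did not overlap, all higher, namely Psat1, Ppp1r15a, Pdia4 and Dnajb9, against 5.19% of all genes in that direction and 4.87% in the lower. Of the 39 members these are 5.13% higher and 10.3% lower with FICZ and 10.3% higher with tryptamine. Set against control replicates 1 and 2 alone, 3 members were higher and 7 lower with FICZ, where 13.9% and 14.1% of all genes did not overlap, and 9 were higher and 2 lower with tryptamine, where 10.2% and 9.84% did not. The 3 higher with FICZ were Atf6, Ddit3 and Edem1, or 7.69% of the members. The 7 lower with FICZ were Asns, Mthfd2, Ern1, Pdia4, Pdia6, Hyou1 and Sdf2l1, or 17.9%. The 9 higher with tryptamine were Atf4, Trib3, Psat1, Psph, Cebpg, Ppp1r15a, Hspa5, Pdia4 and Dnajb9, or 23.1%. Chac1 and Hyou1 were the 2 lower with tryptamine, or 5.13%. None of these members passed the test, also without control replicate 3.

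FICZ and tryptamine were given at different doses, so their values stand side by side and a difference between them is one between these treatments. For the members, 12 were higher with FICZ and 27 lower, with a median log2 difference of -0.018, against -0.0031 over all genes tested. The 95% interval lay within 1.5-fold for 35 of the 39, against 65.9% of all genes. The groups did not overlap for Atf6, higher with FICZ, and for Asns, Psat1, Mthfd2, Pdia4, Dnajb9 and Sdf2l1, lower with FICZ, or 2.56% and 15.4% of the 39 members, where 5.46% and 5.85% of all genes did not overlap in those directions. Of the 12 chaperones and folding enzymes, 11 were lower with FICZ, with a median of -0.06, and Calr was higher at 0.027. Some of the 11 were near 0, such as Dnajc3 at -0.0013, Canx at -0.012 and Hyou1 at -0.018. None of the 12 passed the test, and the share of all genes that were lower is not given here. Control replicate 3 is in neither group but enters the estimate of the spread. In the fit without it Mthfd2 had a log2 difference of -0.18 ± 0.08 and Asns of -0.14 ± 0.06, with unadjusted p-values of 0.0321 and 0.0379 and adjusted p-values of 0.744 and 0.787 in edgeR.

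Control replicate 3 moved the members by transcript length. The SD over the 39 members of the log2 deviation from the other libraries was 0.463 in it and 0.0888 to 0.160 in the others. Against the mean of control replicates 1 and 2, the 10 members with transcripts up to 2000 nt had a median log2 difference of 0.50, the 17 over 2000 and up to 4000 nt 0.21, and the 12 over 4000 nt -0.49. All genes tested had medians of 0.43, 0.02 and -0.50 in these classes. Of the 12 long members, 11 were lower and only Cebpg was higher. Over the 39 members, the deviation in that library had a Pearson correlation of -0.82 with log2 transcript length, given as a description of 1 library. Slc7a1 was at 0.532-fold and Ern1 at 0.412-fold of the other controls, while Ddit3 was at 1.72-fold.

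**Figure D4:**
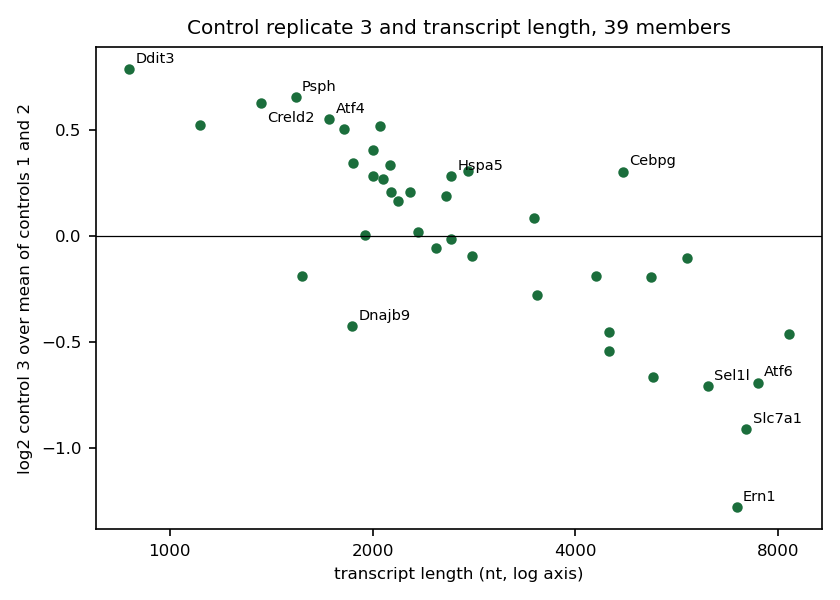
Log2 of control replicate 3 over the mean of control replicates 1 and 2 (y axis) against transcript length in nt (x axis, log scale), with 1 point for each of 39 members. Short transcripts such as Ddit3 lie above 0 and long ones such as Ern1 and Slc7a1 below; Cebpg and Dnajb9 lie off this order.

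The same library was uneven within genes. The 12 transcript entries of Ern1 ranged from 0.0271-fold to 0.915-fold of the other controls, and the 10 of Slc7a1 from 0.0537-fold to 1.79-fold. Of 102 member entries with Ensembl identifiers, 81 had the same length in GENCODE M21, and 40 entries of 18 genes with a mean of at least 50 counts could be placed along the main transcript of their gene. In control replicate 3 the log2 deviation of these entries had a Pearson correlation of -0.736 with their mean distance from the 3′ end, against -0.241 to 0.240 in the other 8 libraries. The 17 entries within 1500 nt of the 3′ end had a median of 0.12 in it and the 18 entries beyond 2000 nt a median of -0.62. Entries of a gene share reads and are not independent. The part of RNA quality in this was not tested.

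**Figure D5:**
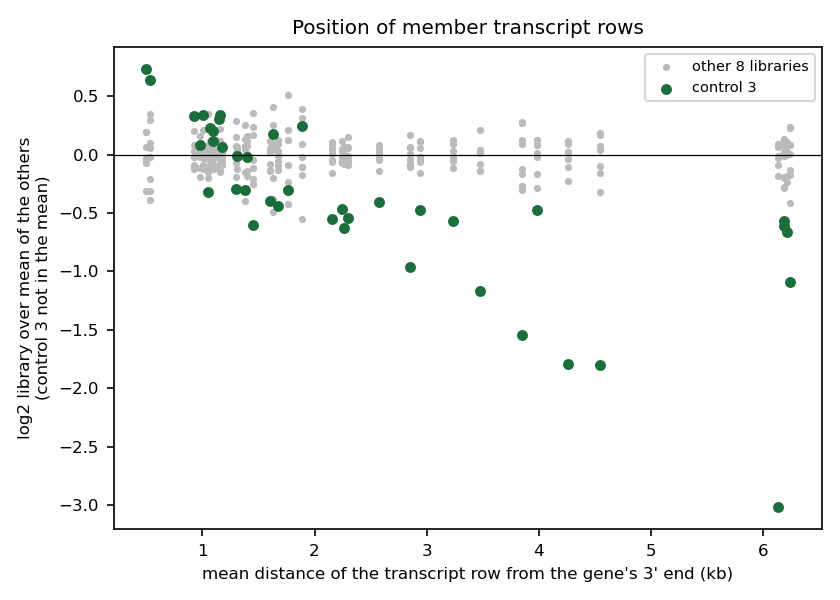
Log2 level of a library over the mean of the others, without control replicate 3 in that mean (y axis), for 40 transcript entries of 18 member genes against their mean distance from the 3′ end in kb (x axis), with control replicate 3 in green and the other 8 libraries in grey. The green points go from above 0 near the 3′ end to below it farther away, while the grey points stay around 0.

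Other genes of the same pathways were read from lists apart from the members. In edgeR's fit to all 9 libraries, 0 of 16 other ATF4 or amino acid response genes passed in any comparison, as did 0 of 12 cytosolic tRNA synthetases, 0 of 22 other genes of the unfolded protein response and of degradation and 0 of 11 genes of eIF2 and its regulators. At an unadjusted p under 0.05, 5 of these 61 genes were found with FICZ and 5 with tryptamine, all of them higher than control, or 8.2% in each case against 8.12% and 5.15% of all genes. This direction depended on the setting for FICZ: without control replicate 3, 5 were higher and 2 lower, and with the length trend removed 6 were higher and 5 lower. With tryptamine 8 were higher and 0 lower in both of these settings. Without control replicate 3 these were 11.5% of the 61 genes with FICZ and 13.1% with tryptamine, against 9.97% and 6.58% of all genes. With the length trend removed they were 18% and 13.1%, and the share of all genes in that setting is not given here.

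Slc7a11, the cystine carrier of system xc-, which is a target of ATF4 and of NRF2, was at 12.2, 13.4 and 10.9 CPM in controls, at 14.9, 15.4 and 17.6 with FICZ and at 18.8, 19.2 and 24.9 with tryptamine. All 3 groups were apart, in that order.

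For Slc7a11 the log2 difference with tryptamine was 0.78 ± 0.16 over all libraries, with an adjusted p of 0.708 in edgeR. It passed without control replicate 3, at 0.71 ± 0.15 and an adjusted p of 0.0489, and in DESeq2's Wald test on all 9 libraries, at an adjusted p of 0.0153, while over all settings the adjusted p ranged from 0.0153 to 0.907.

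Ddit4 (REDD1), an mTORC1 inhibitor raised by ATF4 and by other stresses, was at 31.5, 36.0 and 52.5 CPM in controls, at 55.1, 51.6 and 43.0 with FICZ and at 44.8, 60.3 and 36.9 with tryptamine. Control replicates 1 and 2 were below every treated library, and control replicate 3 was within the range of both treated groups. The log2 difference over all libraries was 0.32 ± 0.22 with FICZ and 0.24 ± 0.22 with tryptamine (adjusted p = 0.606 and 0.741, edgeR). It was 0.56 ± 0.15 and 0.48 ± 0.15 in the fit without control replicate 3 (adjusted p = 0.0746 and 0.473). In the setting chosen after seeing the data, with that library left out and the replicate number as a block, Ddit4 passed in both, at 0.69 ± 0.11 and 0.60 ± 0.11. The adjusted p was then 0.000135 and 0.00519 in edgeR, and over all settings it ranged from these values to 0.835 and 0.964. Atf6b, a relative of Atf6, also passed with FICZ in that setting, at 0.34 ± 0.08 and an adjusted p of 0.0145. Over all 9 libraries it was at 0.30 ± 0.11 with an adjusted p of 0.601, and over all settings the adjusted p reached 0.835. The genes of these lists followed over all settings were Slc7a11, Ddit4, Eif2ak2, Gpt2, Ero1l, Hspa13, Atf6b and Impact. Of these, only Ddit4, Atf6b and Slc7a11 passed in any setting. The other genes of the lists were not followed over all settings.

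Eif2ak2, the eIF2 kinase activated by double-stranded RNA, had a log2 difference of 0.45 ± 0.13 with FICZ over all libraries (adjusted p = 0.574, edgeR) and of 0.34 ± 0.09 without control replicate 3 (0.0772). The ER oxidase Ero1l had 0.40 ± 0.16 with FICZ and 0.45 ± 0.16 with tryptamine, and the chaperone Hspa13 0.31 ± 0.12 and 0.28 ± 0.12, at adjusted p-values of 0.601 and 0.741 in each case. In the fit without that library Ero1l had 0.24 ± 0.10 and 0.28 ± 0.10, and Hspa13 0.20 ± 0.07 and 0.16 ± 0.07. Mthfd1l and the tRNA synthetase gene Mars were lower with FICZ in that fit, at -0.20 ± 0.08 and -0.17 ± 0.08. Their unadjusted p-values were 0.0143 and 0.0304 and their adjusted p-values 0.328 and 0.428 in edgeR. Tryptamine gave 0.0082 ± 0.078 for Mthfd1l and -0.11 ± 0.08 for Mars.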

How the data were processed

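RNA sequencing counts of 9 libraries were taken from the deposited tables, 1 for each pair of groups. Per the file headers they hold whole-number counts of reads for each of 189660 transcripts. The same tables carry p-values, raw and adjusted, and log2 fold changes computed by the authors, with DESeq according to the submitters' processing notes, which give no version. The genome build, aligner, counting rule and strand setting are not given in the labels or file headers. The 9 columns repeated between tables were identical. Another 18 columns of per-sample values were not used. Transcripts without a gene identifier (26853, with 3.56% to 4.23% of the counts) were left out, and 928 of 5653 entries naming several loci were assigned through their RefSeq identifier.

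Each gene was represented by its transcript entry with the highest mean count, out of 336 entries, 1 to 18 for each member. edgeR 4.0.16 in R 4.3.3 was fitted to all 9 libraries with TMM scaling and filterByExpr. The model held only the group, and genes were tested by quasi-likelihood. P-values were adjusted by Benjamini-Hochberg over all genes tested, and genes under 0.05 are said to have passed. CPM uses the effective library size. The alternatives were DESeq2 1.42.0 size factors and Wald test, no filter, the replicate block, sums over transcripts, removal of each library's trend on transcript length, leaving out each library and, for FICZ against tryptamine, a fit to their 6 libraries alone. Scripts were tested on simulated data.

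The members and lists were chosen with earlier results of these data known. Libraries of Atf4, Ddit3, Hspa5, Cyp1a1 and up to 3 members of each role with the smallest p are given in full, Ern1 in part and after its values were seen. Up to 3 genes of each other list were eligible by smallest p. The element matches use RefSeq promoters on GRCm38.p6, and entries were placed on transcripts of GENCODE M21, by identifier and length only.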

Additional observations from a re-analysis of the deposited data

How the results depend on the processing

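The number of members that passed was 0 in all 3 comparisons under every alternative set out at the start, also with each library left out in turn. It was 1 in the added fit with the replicate block and without control replicate 3, for Slc1a5 with FICZ. Counts over all genes moved more. For FICZ against control, 14 genes passed, against 54 with the Wald test, 26 without the filter, 4 with the replicate block, 4 for sums over transcripts, 52 with the length trend removed and 4 to 101 when each library was left out. For tryptamine, 1 passed, against 12 with the Wald test, 2 without the filter, 2 for sums over transcripts, 6 with the length trend removed and 1 to 25 with each library left out. For FICZ against tryptamine, 0 passed in edgeR, with 214 at an unadjusted p under 0.05, against 10 with the Wald test, 5 with the length trend removed and 0 to 17 with each library left out; the highest count from leaving out a library came without control replicate 3 in each comparison. The cause of these shifts was not tested. Of the 117 member differences, 26 changed sign without control replicate 3 and 26 with the length trend removed, 1 to 8 in the other planned settings. Same-numbered deviations from the group means correlated at -0.058 to 0.116, with 1 of 9 over 0.1. Of the 9 libraries, 3 correlated best with their own number. Between FICZ and tryptamine the correlations were 0.054, 0.044 and 0.116 for replicates 1, 2 and 3. The deviations of the controls hold the departure of control replicate 3, so whether equal numbers pair the libraries was not decided. With the replicate block, tryptamine kept a count of 1 and FICZ against tryptamine of 0. Depth and spread limit what could be seen. Over all 9 libraries the 95% interval stayed within 1.5-fold for 30 of 39 members with FICZ and 31 with tryptamine. For the others it reached beyond that size. The interval of a gene does not give the size of change that would pass after adjustment over all genes. Slc7a11 with tryptamine, at a log2 difference of 0.78, had an adjusted p of 0.708 in edgeR's fit to all 9 libraries.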
